A study of Mus musculus with 60 samples.

Results

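The Hippo pathway genes and Tead factors described here were 10 of the 27238 genes of the expression table. They were chosen by symbol, with earlier results of these data known. They were Yap1 (ENSMUSG00000053110, chromosome 9), Wwtr1 (ENSMUSG00000027803, chromosome 3), Tead1 (ENSMUSG00000055320, chromosome 7), Tead2 (ENSMUSG00000030796, chromosome 7), Tead3 (ENSMUSG00000002249, chromosome 17), Tead4 (ENSMUSG00000030353, chromosome 6), Lats1 (ENSMUSG00000040021, chromosome 10), Lats2 (ENSMUSG00000021959, chromosome 14), Amot (ENSMUSG00000041688, chromosome X) and Nf2 (ENSMUSG00000009073, chromosome 11). All 10 were found. Single mouse embryos were sequenced as 54 libraries in 18 groups of 3, and the donor cells of nuclear transfer as 6 libraries in 2 groups of 3. In vivo embryos came from superovulated C57BL/6 females mated with DBA2 males, so that the embryos were BDF1. NTC embryos were enucleated BDF1 oocytes given the nucleus of a cumulus cell (CC), and NTM embryos were the same oocytes given the nucleus of a fetal fibroblast (MEF). Both donor cells were BDF1. The paper describes MEF donors as passaged in culture and then held in low serum, and cumulus cells as freshly collected and kept cold. Cell type and this handling cannot be told apart between the donor cells. NT embryos were activated with strontium chloride and cytochalasin B and cultured in vitro, at first with Scriptaid, a histone deacetylase inhibitor. Nuclear transfer, activation, culture, the drugs and the oocyte's strain thus differed together from in vivo embryos and cannot be told apart. Cumulus cells came from females, and no sex was stated for the fetuses or the in vivo embryos. Each embryo type was sampled at 6 stages, from the single cell through 2, 4 and 8 cells to morula and blastula.

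Hippo signalling is a kinase relay that ends at a pair of coactivators, Yap1 and Taz, the product of Wwtr1. Nf2 (merlin) and Amot (angiomotin) sit at cell junctions and help to activate the kinases Lats1 and Lats2, which phosphorylate Yap1 and Taz and keep them out of the nucleus. Unphosphorylated Yap1 and Taz enter the nucleus and bind the DNA-binding factors Tead1 to Tead4. In the preimplantation mouse embryo the relay is off in outer cells, where Tead4 with Yap1 or Taz turns on Cdx2 and Gata3 and the cells become trophectoderm. The relay is on in inner cells, where Sox2 is expressed instead. Control by phosphorylation and location cannot be read from the members' own RNA, so the values below are RNA levels and not pathway activity.

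The promoters of the coactivator pair are shown because the RNA levels of Yap1 and Wwtr1 ran in opposite directions across the stages. The bases are the 250 before the annotated RefSeq start (build GRCm38.p6, minus strand, printed 5′ to 3′), at chr9:8004597-8004846 for Yap1 and chr3:57575911-57576160 for the first of the Wwtr1 starts. Capitals mark GGAATG, the core letters that Tead factors bind, searched on both strands as GGAATG or CATTCC.
Yap1: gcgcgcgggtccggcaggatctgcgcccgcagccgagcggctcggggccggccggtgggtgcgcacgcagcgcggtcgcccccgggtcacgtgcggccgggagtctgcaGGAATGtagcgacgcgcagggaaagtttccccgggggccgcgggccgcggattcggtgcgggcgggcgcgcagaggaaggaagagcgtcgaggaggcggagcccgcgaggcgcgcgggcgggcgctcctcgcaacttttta
Wwtr1: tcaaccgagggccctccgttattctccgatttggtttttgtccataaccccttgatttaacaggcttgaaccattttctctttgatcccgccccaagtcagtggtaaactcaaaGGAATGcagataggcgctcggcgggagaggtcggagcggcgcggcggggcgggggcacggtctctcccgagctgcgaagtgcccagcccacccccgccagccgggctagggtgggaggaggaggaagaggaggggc
The letters stood 141 bases before the start in Yap1 and 136 bases before it in Wwtr1. They were in windows of 3 of the 8 members found, Yap1, Wwtr1 and Tead3, of 16 of 48 other pathway genes found and of 3880 of all 27025 genes. By window, 5 of 13 held them, with the pair of overlapping Wwtr1 windows counting the same letters, against 12.642% of the 32851 windows of all promoters. The Amot window (chrX:145487640-145487889) held no match. A match is a description of the letters and shows no binding. The Yap1 window had 76.4% G and C, against 61.6% in the first Wwtr1 window and 44.8% in the Amot window.

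Libraries held 5294167 to 47830132 reads on genes (median 15451428), and those of donor cells, at 31558140 or more, were the deepest. At these depths 3 reads corresponded to 0.00558 to 0.157 RPKM (reads scaled by exon length and by all reads on genes in the library) for the members. The share of expression in mitochondrial genes was 5.68 to 8.87% in in vivo 4-cell embryos, 32.1 to 45.0% in in vivo 8-cell embryos and 29.6 to 40.4% in NT 4-cell embryos, and with values scaled to nuclear reads only 38 of 44 calls of members were kept. In vivo blastulae had 7730 to 7808 genes above 0 against 11498 to 13568 in NT blastulae, and they held none of 8 oocyte markers. At the 4-cell stage the order was reversed, with 13576 to 13932 genes above 0 in in vivo and 8997 to 11929 in NT embryos. All 10 fibroblast markers were above 1 RPKM on average in MEFs, where they summed to 5294 to 7846 RPKM, against at most 2.57 RPKM in NTM 1-cell embryos. Cumulus cells had 7 of 10 cumulus markers above 1 RPKM with Has2 at 0, and MEFs reached a like sum of that list (507 to 1235 RPKM against 540 to 876 RPKM). Trophectoderm markers summed to 440 to 1121 RPKM in in vivo blastulae, 167 to 781 RPKM in NTC blastulae and 299 to 725 RPKM in NTM blastulae. Of 12 widely used genes that were looked up afterwards, Actb was at 0 in in vivo 1-cell replicate 1 and Tbp was at 0 in in vivo blastula replicate 3, so a 0 here says only that a gene was listed at 0.

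Yap1 or Wwtr1 had the highest mean of the 10 members in every group but in vivo 4-cell embryos, where Tead4 did. Yap1 was highest in the 6 groups of 1-cell and 2-cell embryos, whose means lay between 48.2 ± 4.5 (SD, n = 3) and 70.8 ± 10.8 RPKM, and all of whose libraries but in vivo 2-cell replicate 3 (32.1 RPKM) held more than the highest library of every later stage. Wwtr1 was highest in in vivo blastulae (96.1 ± 24.0 RPKM), then in MEFs (71.5 ± 6.9 RPKM) and in vivo morulae (47.2 ± 12.7 RPKM), and these 3 groups did not overlap. When the 20 groups were put in order of their mean, the ranges of 17 of the 19 neighbour pairs overlapped for Yap1 and for Wwtr1, and 18 or 19 of them for every other member. The order of most neighbours is therefore within the spread of 3 libraries. Bulk RNA from one embryo cannot tell fewer expressing cells from less RNA per cell.

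**Figure D1:**
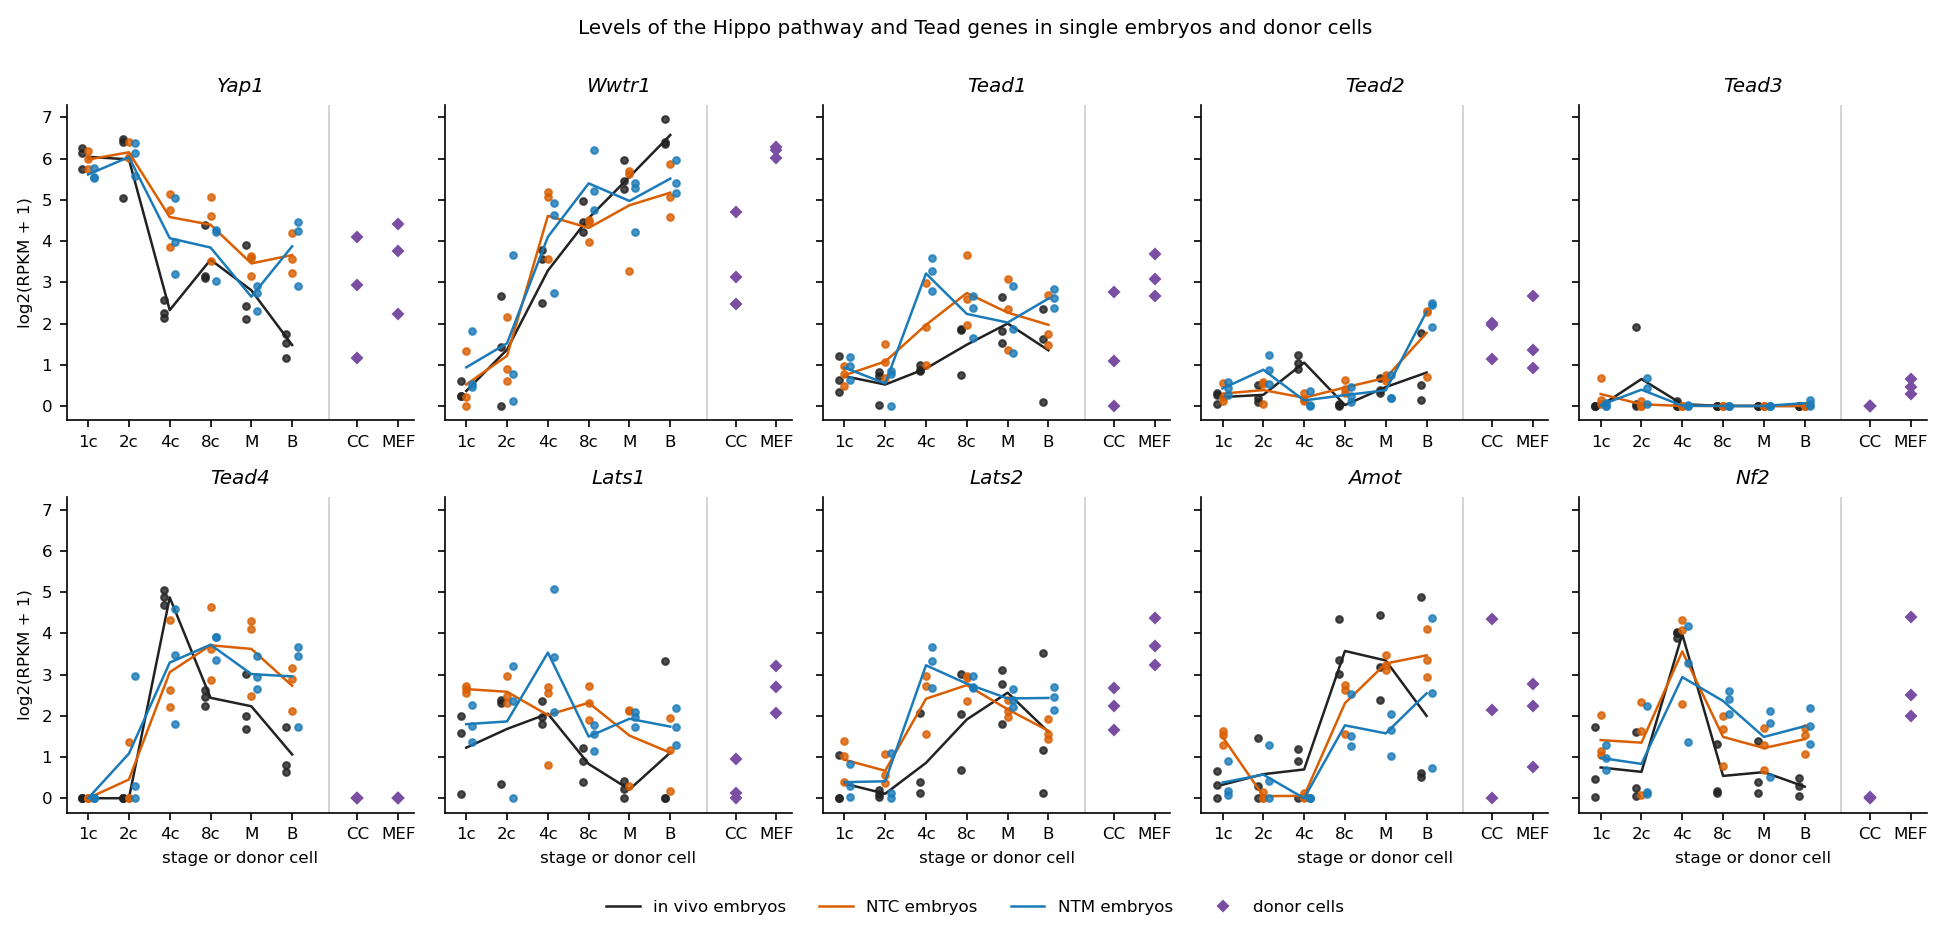
Level of each of the 10 genes as log2(RPKM + 1) on the y axis, by stage (1c to 8c, M for morula, B for blastula) and in donor cells (CC and MEF) on the x axis. Each point is one library and each line joins the means of 3 libraries. Yap1 drops after the 2-cell stage while Wwtr1 climbs from near 0 to 81.1 RPKM or more in every in vivo blastula, and Tead4 starts from 0 in all 1-cell libraries.

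Successive stages were compared within each embryo type with limma on log2(RPKM + 1), and a change was called at an adjusted p below 0.05 over all genes tested with a log2 change of at least 1 in size. The p-values measure the spread between these libraries, since the replicate numbers were not tied to separate experiments. Over the 15 steps, 17 of 116 tests of members were called, and all but 1 of them lay at the steps into or out of the 4-cell stage. From 2 to 4 cells in vivo, 2 of 9 members tested rose and 1 fell, while 52.2% of all genes were called (31.4% higher and 20.8% lower). The members' median change there was 0.75 against 0.36 over all genes. At the next step, to the 8-cell stage, 2 of 9 rose and 4 fell, with 43.7% of all genes called (4.40% higher and 39.3% lower) and a median of 0.58 against -1.05. At the step from 2 to 4 cells, NTC embryos had 4 members up and 1 down of 7 (36.6% of all genes called, 16.4% higher and 20.1% lower, median 1.75 against -0.20), and NTM embryos had 2 up of 7 (26.4% called, 12.1% higher, median 2.21 against -0.20). One further call was the decline of Amot from the NTC 1-cell to the 2-cell stage, where 13.5% of all genes were called and 8.95% were lower.

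No member was called at the other 10 steps. In vivo embryos had no member with an unadjusted p below 0.05 at the steps from the 1-cell to the 2-cell stage, from the 8-cell stage to the morula or from the morula to the blastula, where 0%, 0.0116% and 0.801% of all genes were called. NT embryos at the steps with no call had at most 2 members with an unadjusted p below 0.05, and at most 1 was called in any other setting tried. These low counts were read against low counts over all genes, such as 0.0564% for NTC and 0.363% for NTM embryos from the 4-cell to the 8-cell stage and 7.16% and 4.22% from morula to blastula. Between 1 and 2 cells in NTM embryos 9.40% of all genes were called, and between 8 cells and the morula 0% in both NT types.

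**Figure D2:**
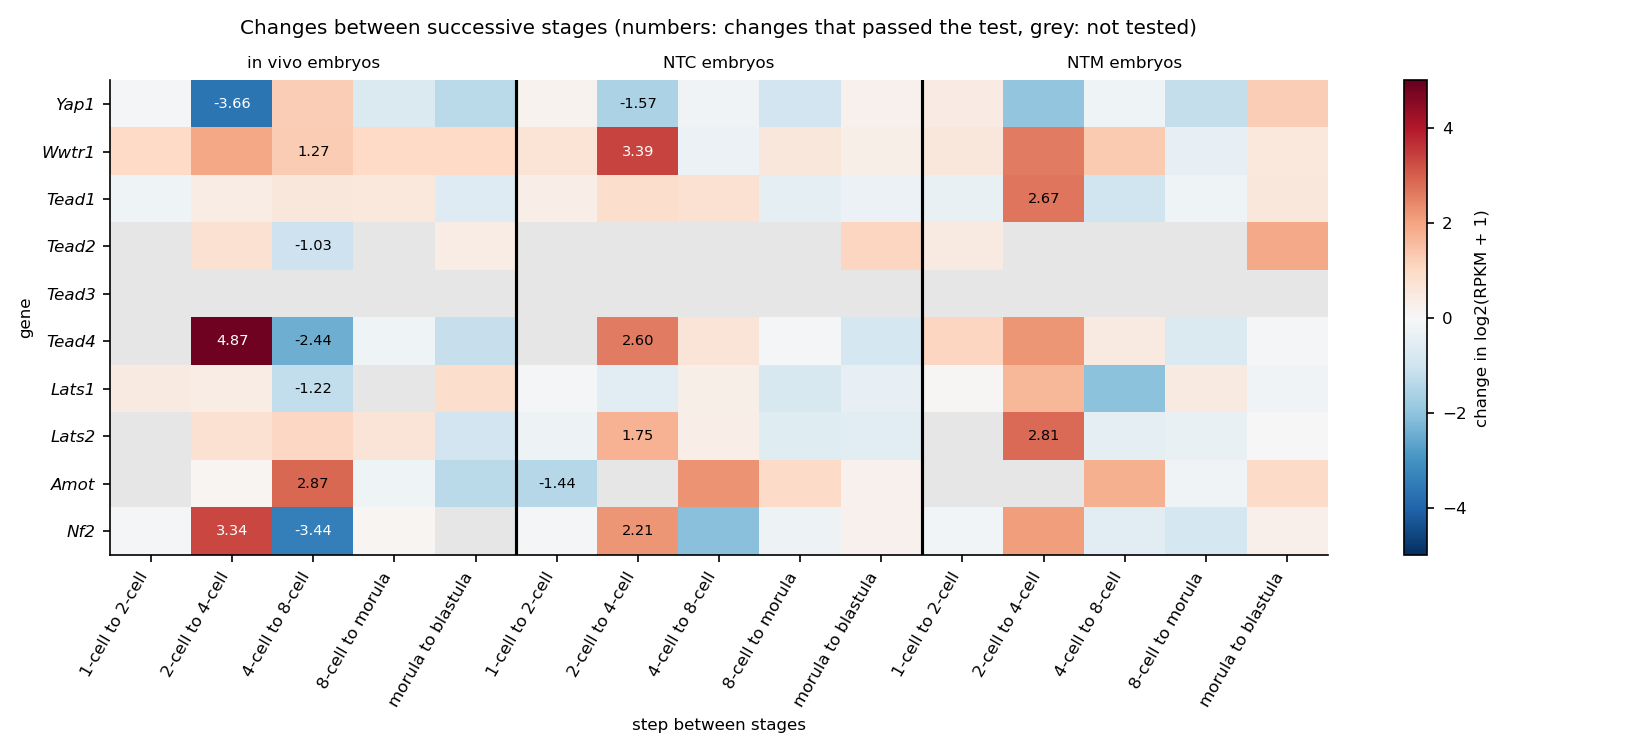
Change in log2(RPKM + 1) of each gene (rows) at the 5 steps between stages (columns) in in vivo, NTC and NTM embryos, on a colour scale from blue (lower at the later stage) to red (higher). Printed numbers are the 17 changes that passed the test and grey cells were not tested. All but 1 of the numbers stand at the 2-cell to 4-cell and in vivo 4-cell to 8-cell steps.

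Yap1 RNA was high in 1-cell and 2-cell embryos and fell from there to the 4-cell stage in in vivo and NTC embryos. In vivo 2-cell embryos held 84.2, 88.6 and 32.1 RPKM of Yap1, and 4-cell embryos 3.80, 3.42 and 4.94 RPKM. The stages did not overlap, and the log2 change was -3.66 ± 0.48 (SE, n = 3 per stage, limma adjusted p = 0.000631). The call was kept with each of the 6 libraries left out. NTC embryos passed from 64.3, 83.2 and 64.8 to 25.9, 13.5 and 34.2 RPKM, a fall of a smaller estimated size (-1.57 ± 0.43, adjusted p = 0.0210). This call was lost without NTC 2-cell replicate 2 or 3, with adjusted p up to 0.0737. In NTM embryos the values 82.7, 47.1 and 69.8 were followed by 14.8, 8.13 and 31.8 RPKM, again with no overlap, but the change of -1.97 ± 0.64 did not pass the test (adjusted p = 0.0524). The difference between the NTC and in vivo changes, 2.09 ± 0.66 on the log2 scale, did not pass its own test (interaction, adjusted p = 0.0530, with 14.3% of all genes called by that test).

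After the 4-cell stage Yap1 remained low in in vivo embryos. Their 8-cell libraries held 7.63, 7.91 and 19.8 RPKM, above every 4-cell library, with a log2 difference of 1.22 ± 0.45 that was not called (adjusted p = 0.0596). The in vivo blastulae, at 1.89, 1.22 and 2.36 RPKM, were the lowest group of all 20 and lay below every other group's libraries except 1 cumulus library of 1.25 RPKM.

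Wwtr1, which encodes Taz, ran the other way. It was listed at 0.180, 0.179 and 0.530 RPKM in in vivo 1-cell embryos and reached 4.63, 10.8 and 12.9 RPKM at the 4-cell, 21.1, 17.7 and 30.5 RPKM at the 8-cell, 42.8, 37.3 and 61.5 RPKM at the morula and 81.1, 124 and 83.4 RPKM at the blastula stage. From the 4-cell stage on, no in vivo library overlapped a library of the next stage. Of these steps, the one from the 4-cell to the 8-cell stage was called (log2 change 1.27 ± 0.45, limma adjusted p = 0.0489). It was lost without any 1 of the 6 libraries, with adjusted p from 0.0556 to 0.12, and was 2.57 with libraries scaled to a common median ratio. In NTC embryos Wwtr1 rose from 0.514, 0.858 and 3.48 RPKM at the 2-cell to 10.9, 32.8 and 35.3 RPKM at the 4-cell stage (3.39 ± 0.64, adjusted p = 0.00392), and the call was kept without each library in turn. NTM embryos had one high 2-cell library (11.7, 0.715 and 0.0845 RPKM before 5.69, 29.5 and 23.8 RPKM), the stages overlapped, and the change of 2.58 ± 1.04 was not called (adjusted p = 0.102).

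The balance of the coactivator pair is a level per length within each library and so does not depend on the library's scaling. Yap1 made up 99.3 to 99.7% of the summed RPKM of Yap1 and Wwtr1 in in vivo 1-cell embryos. Its share was 24.0 to 45.0% at the 4-cell, 26.6 to 39.3% at the 8-cell, 7.12 to 18.5% at the morula and 0.979 to 2.75% at the blastula stage. NT embryos also passed from mostly Yap1 to mostly Wwtr1, and their last shares of Yap1 were larger, 15.8 to 42.8% in NTC and 15.7 to 33.5% in NTM blastulae. All 6 NT blastulae lay above all 3 in vivo blastulae in this share. At the morula stage the ranges overlapped, with 13.5 to 55.8% in NTC and 8.78 to 24.1% in NTM embryos.

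**Figure D3:**
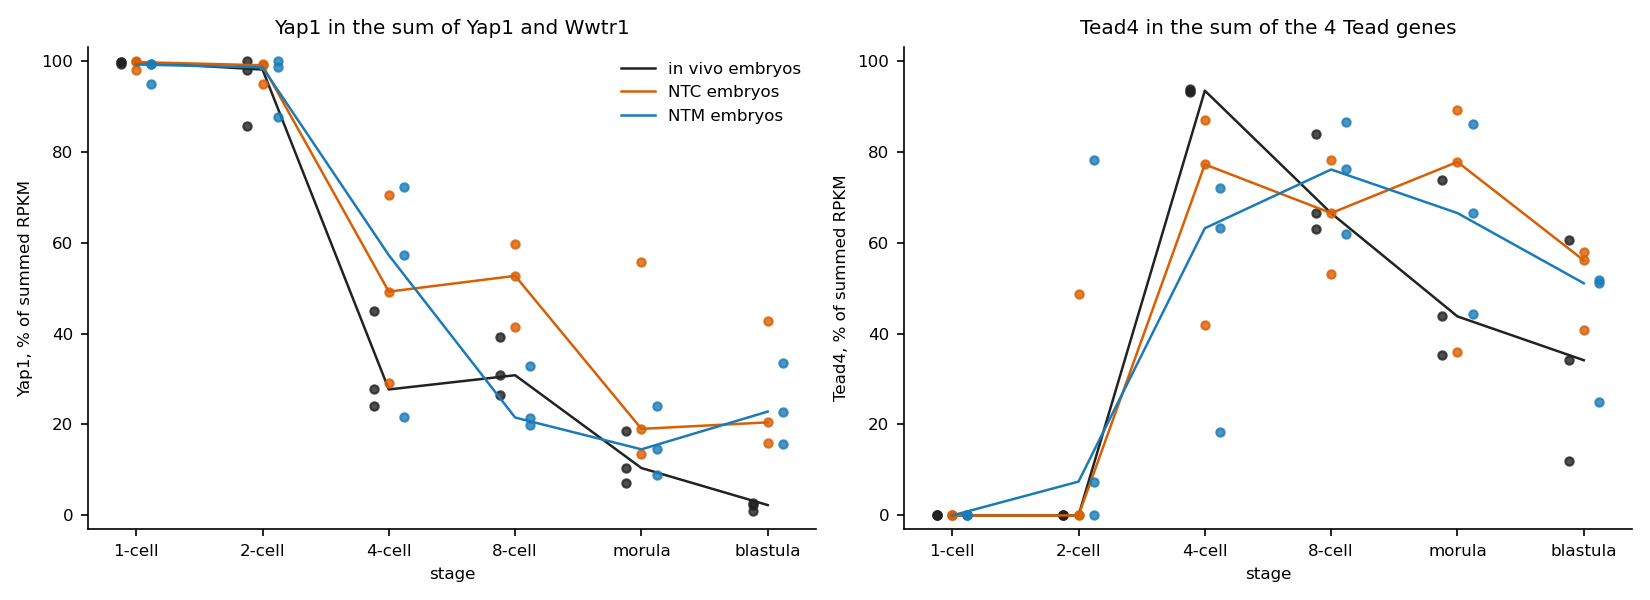
Share of Yap1 in the summed RPKM of Yap1 and Wwtr1 (left) and share of Tead4 in the summed RPKM of the 4 Tead genes (right), in % on the y axis, by stage on the x axis. Points are single libraries and lines join the medians of 3. The left panel ends with in vivo blastulae at 0.979 to 2.75% and NT blastulae at 15.7% or more, and the right panel has in vivo 4-cell embryos at 93.1 to 93.8%.

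Tead4, the Tead factor needed for trophectoderm, appeared with cleavage. It was at 0 in all CC, MEF and 1-cell libraries and in all 3 in vivo 2-cell libraries, and stood at 28.6, 31.9 and 24.8 RPKM in in vivo 4-cell embryos, its highest group. No fold is given against a group listed at 0, and the fitted log2 change, 4.87 ± 0.33 (limma adjusted p = 4.83e-05), depends on the pseudocount of 1. Tead4 passed the filter on low values at this step only through the 4-cell embryos. Levels then fell to 5.20, 3.69 and 4.45 RPKM at the 8-cell stage (-2.44 ± 0.33, adjusted p = 0.000911). When libraries were scaled to a common median ratio, which takes out the drop of the median gene at this step, the fall was -1.14 and was still called. Both calls were kept with every single library left out. Later in vivo values were 2.2, 3.0 and 7.09 RPKM in morulae and 0.566, 0.747 and 2.32 RPKM in blastulae.

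In NT embryos Tead4 was first seen at the 2-cell stage in some embryos. NTC 2-cell embryos had 0, 0 and 1.57 RPKM and NTM 2-cell embryos 6.78, 0.222 and 0 RPKM. By the 4-cell stage NTC embryos held 19.2, 5.14 and 3.66 RPKM, a rise of 2.60 ± 0.70 (limma adjusted p = 0.0192) that was lost without NTC 2-cell replicate 1 or 2 or NTC 4-cell replicate 1, with adjusted p up to 0.0792. NTM 4-cell embryos held 10.1, 2.47 and 23.2 RPKM (2.21 ± 1.02, adjusted p = 0.146, not called). Later NT levels were 6.33, 11.4 and 23.8 RPKM in NTC and 14.0, 14.0 and 9.27 RPKM in NTM 8-cell embryos, and 6.48, 7.96 and 3.35 RPKM in NTC and 11.8, 9.98 and 2.32 RPKM in NTM blastulae.

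Among the Tead genes, Tead4 made up 93.1 to 93.8% of the summed RPKM in in vivo 4-cell embryos, 62.9 to 83.8% in 8-cell embryos, 35.3 to 73.9% in morulae and 11.9 to 60.5% in blastulae. Its share was 41.8 to 86.9% in NTC and 18.4 to 72.1% in NTM 4-cell embryos, below all in vivo 4-cell embryos. By the blastula stage the ranges overlapped.

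Tead1 and Tead2, which are broadly expressed relatives that bind the same letters, filled the rest, and Tead3 was barely seen. Tead1 in in vivo embryos was at 0.839, 0.812 and 0.987 RPKM at the 4-cell and 4.08, 0.0624 and 2.08 RPKM at the blastula stage. In NTM embryos it rose from 0.713, 0.815 and 0 RPKM at the 2-cell stage to 5.87, 11 and 8.72 RPKM at the 4-cell stage (2.67 ± 0.63, limma adjusted p = 0.0149), with no overlap and with the call kept without each library in turn. Tead2 fell in in vivo embryos from 1.04, 1.35 and 0.853 RPKM at the 4-cell to 0.0150, 0.0310 and 0 RPKM at the 8-cell stage (-1.03 ± 0.33, adjusted p = 0.0349). That call was lost without any 8-cell library (adjusted p 0.0906 to 0.103), and the fits without a 4-cell library did not test the gene. Its highest embryo values were in NT blastulae, 3.97, 3.89 and 0.629 RPKM in NTC and 4.68, 4.46 and 2.77 RPKM in NTM embryos, against 0.109, 0.426 and 2.41 RPKM in in vivo blastulae. The rise of Tead2 from NTM morula to blastula, 1.91 ± 0.51, was not called (adjusted p = 0.0582). Tead3 was at 0 in 43 of 60 libraries and reached 1 RPKM in 1 library, in vivo 2-cell replicate 2 (2.75 RPKM).

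The balance of the kinases Lats1 and Lats2 in in vivo embryos was mostly Lats1 at the start and mostly Lats2 in morulae. Lats2 made up 0 to 26.3% of the pair's summed RPKM in in vivo 1-cell embryos and 95.9 to 99.7% in in vivo morulae. In vivo Lats1 went from 4.17, 2.93 and 2.50 RPKM at the 4-cell to 1.31, 0.866 and 0.307 RPKM at the 8-cell stage (-1.22 ± 0.40, limma adjusted p = 0.0407). That call was lost without any single library but in vivo 8-cell replicate 1 (adjusted p up to 0.107) and in all 6 other settings (0.0537 to 0.511), among them median-ratio scaling with a change of -0.39. In vivo morulae held 0.00719, 0.159 and 0.331 RPKM of Lats1, and 1 of the in vivo blastulae stood apart at 9.01 RPKM with the other two at 0. The same library, in vivo blastula replicate 2, also held 10.5 RPKM of Lats2 and 28.3 RPKM of Amot, against 1.25 RPKM or less of Lats2 and 0.530 RPKM or less of Amot in the other two. NT morulae kept Lats1 at 3.44, 0.236 and 3.30 RPKM in NTC and 3.26, 2.30 and 2.92 RPKM in NTM embryos, where Lats2 made up 47.0 to 93.4% and 55.4 to 64.8%.

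Lats2 was at 1.60 RPKM or less in every 1-cell and 2-cell embryo. It rose in NTC embryos from 1.10, 0.481 and 0.285 to 6.86, 5.56 and 1.94 RPKM (1.75 ± 0.55, limma adjusted p = 0.0371) and in NTM embryos from 1.14, 0.0995 and 0 to 11.7, 5.35 and 9.11 RPKM (2.81 ± 0.66, adjusted p = 0.0144). The NTC call was lost without NTC 2-cell replicate 2 or 3 or NTC 4-cell replicate 1 or 2 (adjusted p up to 0.123), and the NTM call without NTM 2-cell replicate 2 or 4-cell replicate 1 (up to 0.0569). In vivo 4-cell embryos held 0.0833, 0.312 and 3.19 RPKM, and in vivo 8-cell embryos 3.12, 0.608 and 7.03 RPKM.

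Amot and Nf2, the junction proteins upstream of the kinases, changed in opposite directions from the in vivo 4-cell to the 8-cell stage. In vivo Amot was at 1.29, 0.863 and 0 RPKM at the 4-cell stage and rose to 7.09, 9.23 and 19.4 RPKM at the 8-cell stage (2.87 ± 0.52, limma adjusted p = 0.00332). Later in vivo values overlapped these, at 8.07, 20.9 and 4.26 RPKM in morulae and 0.530, 28.3 and 0.425 RPKM in blastulae. NT embryos were at or near 0 at the 4-cell stage, with 0.0125, 0.10 and 0.0116 RPKM in NTC and 0 in all 3 NTM embryos. They reached 5.69, 1.95 and 5.15 RPKM and 4.74, 1.86 and 1.41 RPKM at the 8-cell stage, with differences of 2.25 ± 0.65 (adjusted p = 0.248) and 1.77 ± 0.64 (adjusted p = 0.321) that were not called, at steps where few genes were. NTC 1-cell embryos held 1.46, 2.11 and 1.91 RPKM of Amot and NTC 2-cell embryos 0, 0 and 0.112 RPKM (-1.44 ± 0.40, adjusted p = 0.0459). This last call was lost without any 1 of the 6 libraries (adjusted p 0.0551 to 0.170).

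Nf2 peaked at the 4-cell stage. In vivo embryos held 2.06, 0.0422 and 0.186 RPKM at the 2-cell, 13.9, 15.1 and 15.3 RPKM at the 4-cell and 1.5, 0.0919 and 0.126 RPKM at the 8-cell stage. Both sides of the peak were called, at 3.34 ± 0.49 (limma adjusted p = 0.00105) and -3.44 ± 0.45 (adjusted p = 0.000742), and each call was kept without every single library. NTC 4-cell embryos held 3.85, 19.0 and 16.0 RPKM, a rise of 2.21 ± 0.76 (adjusted p = 0.0498) that was lost without any library but NTC 4-cell replicate 1 (adjusted p up to 0.156). NTM 4-cell embryos were scattered at 1.56, 8.79 and 17.0 RPKM.

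NT embryos were then set against in vivo embryos, stage by stage. The NTC, NTM and pooled NT comparisons of a stage share the 3 in vivo libraries, so their values are not independent of each other. Members were called at the 4-cell and blastula stages and at no other stage. At the 4-cell stage 27.8% of all genes were called for NTC (7.40% higher and 20.4% lower), 21.1% for NTM (3.33% higher) and 26.6% for pooled NT embryos (5% higher), and the median gene was lower in NT embryos by 0.39, 0.69 and 0.41 on the log2 scale. Members called were 1 higher and 1 lower of 8 in NTC, 2 higher of 8 in NTM and 3 higher of 7 in pooled NT embryos, with medians of 0.51, 1.15 and 1.07.

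At the 4-cell stage Yap1 was higher in NT embryos. Each of the 6 NT libraries (8.13 to 34.2 RPKM) lay above the 3 in vivo libraries (3.42 to 4.94 RPKM). The difference was 2.26 ± 0.43 for NTC (limma adjusted p = 0.00498, kept without each library), 1.74 ± 0.59 for NTM (adjusted p = 0.0700, not called) and 2.00 ± 0.49 for pooled NT embryos (adjusted p = 0.0120). The pooled call was lost without in vivo 4-cell replicate 1 or 2 (adjusted p up to 0.0597). Computed over nuclear genes alone, the NTC difference was 2.73.

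Tead4 was lower in NT 4-cell embryos, with every NT library (2.47 to 23.2 RPKM) below every in vivo library (24.8 to 31.9 RPKM). The NTC difference was -1.81 ± 0.54 (limma adjusted p = 0.0368), and it was lost without any library but NTC 4-cell replicate 1 (adjusted p up to 0.131), without the filter on low values (0.0889), with median-ratio scaling (0.110) and over nuclear genes alone (0.105). The differences of -1.58 for NTM (adjusted p = 0.150) and -1.70 for pooled NT embryos (adjusted p = 0.0769) were not called.

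Tead1 and Lats2 were the members called higher in NTM 4-cell embryos. The Tead1 values 5.87, 11 and 8.72 RPKM stood above 0.839, 0.812 and 0.987 RPKM in in vivo embryos (2.30 ± 0.50, limma adjusted p = 0.0158), and the call was lost without any in vivo 4-cell library (adjusted p up to 0.0737). Lats2 at 5.35 to 11.7 RPKM lay above 0.0833 to 3.19 RPKM (2.37 ± 0.67, adjusted p = 0.0413), and this call was lost without in vivo replicate 1 or 2 or NTM replicate 1 or 3 (adjusted p up to 0.156). Over both NT types the differences were 1.68 ± 0.51 for Tead1 (adjusted p = 0.0333) and 1.96 ± 0.58 for Lats2 (adjusted p = 0.0288). The pooled calls were lost without in vivo 4-cell replicate 1 or 2 or NTC 4-cell replicate 1 or 2, and for Tead1 also without in vivo 4-cell replicate 3 (adjusted p up to 0.119 and 0.151). For NTC embryos alone, neither Tead1 (1.06, adjusted p = 0.206) nor Lats2 (1.56, adjusted p = 0.114) was called. Tead2 was lower in all 6 NT 4-cell embryos (0 to 0.290 RPKM) than in the 3 in vivo embryos (0.853 to 1.35 RPKM), and the NTC difference of -0.85 was not called (adjusted p = 0.169).

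**Figure D4:**
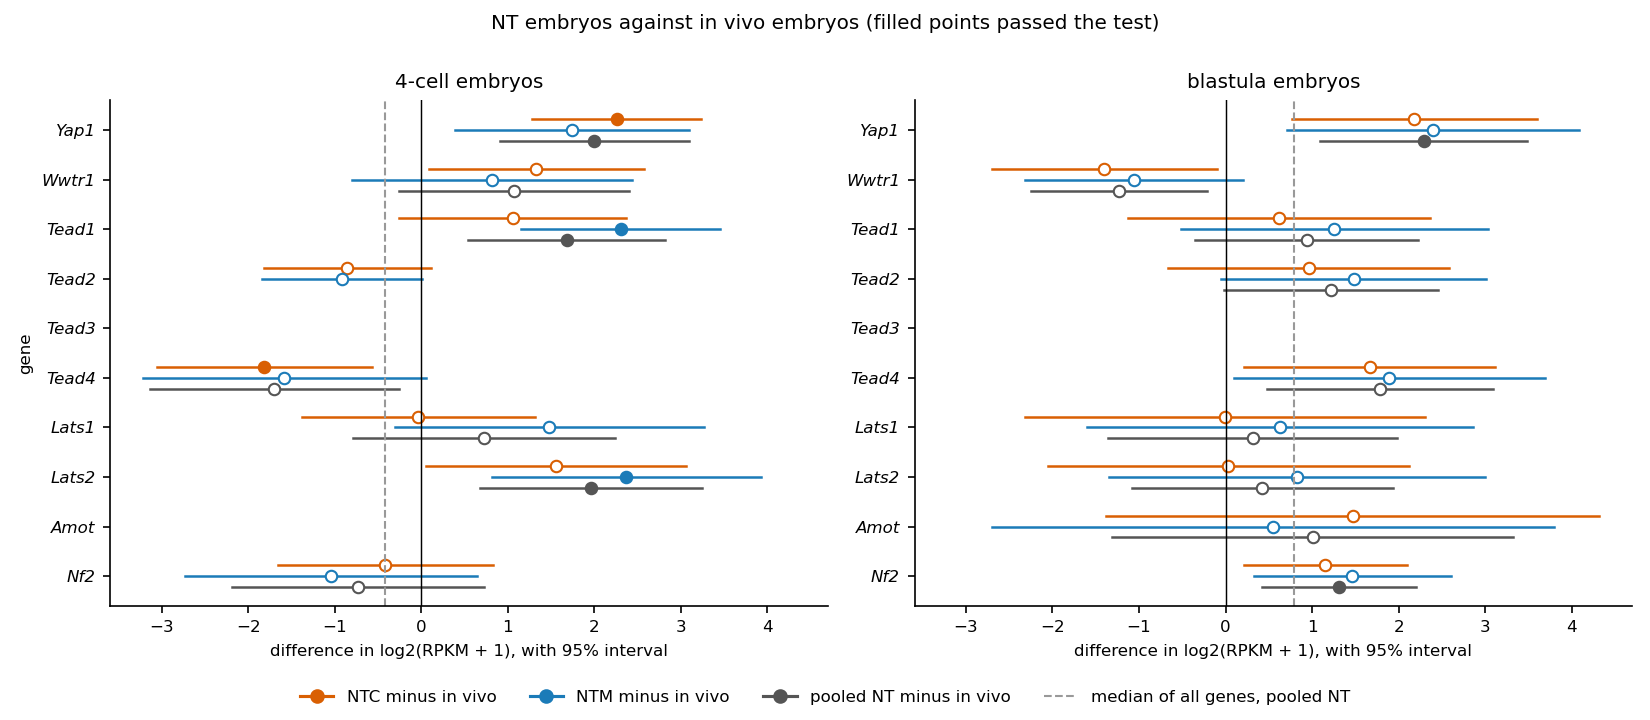
Difference of NTC, NTM and pooled NT embryos from in vivo embryos in log2(RPKM + 1), with its 95% interval, on the x axis for each gene tested, at the 4-cell stage (left) and the blastula stage (right). Filled points passed the test, open points did not, and the dashed line is the median of all genes for pooled NT embryos. Yap1 is filled for NTC and pooled NT embryos on the left and for pooled NT embryos on the right.

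At the blastula stage, Yap1 and Nf2 were called higher in pooled NT embryos, 2 of 9 members, where 18.5% of all genes were called (16.6% higher) and the median gene was higher by 0.79. Yap1 was at 17.3, 10.8 and 8.32 RPKM in NTC and 21.1, 18.1 and 6.47 RPKM in NTM blastulae, all above the in vivo values of 1.89, 1.22 and 2.36 RPKM. The pooled difference of 2.29 ± 0.54 (limma adjusted p = 0.0172) was kept without each of the 9 libraries (0.00987 to 0.0437). The NTC (2.18 ± 0.61, adjusted p = 0.0615) and NTM differences (2.40 ± 0.73, adjusted p = 0.0923) were not called on their own, at 9.46% and 0.746% of all genes called. Nf2 at 1.12 to 3.54 RPKM in NT blastulae lay above 0.0342 to 0.410 RPKM in vivo (1.31 ± 0.40, adjusted p = 0.0451), a call lost without any library but NTM blastula replicate 3 (adjusted p up to 0.114). Wwtr1 was lower in all 6 NT blastulae (23.1 to 61.2 RPKM) than in the in vivo blastulae (81.1 to 124 RPKM), but the difference of -1.23 ± 0.46 was not called (adjusted p = 0.0847). Tead4 was at 2.32 to 11.8 RPKM in NT against 0.566 to 2.32 RPKM in in vivo blastulae (1.78 ± 0.59, adjusted p = 0.0592, not called).

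The 8-cell stage and morula gave no call. Pooled over both NT types, 4 of 8 members at the 8-cell stage and 1 of 8 at the morula had an unadjusted p below 0.05, none was called in any other setting, and 3.61% and 0.693% of all genes were called. The single NT types had 0 of 8 called there as well, with 1.46% (NTC) and 2.02% (NTM) of all genes called at the 8-cell stage and 0.0321% and 0.168% at the morula. At the 8-cell stage Amot differed by -1.54 ± 0.52 (limma adjusted p = 0.114), Tead4 by 1.28 ± 0.46 (adjusted p = 0.135) and Nf2 by 1.38 ± 0.50 (adjusted p = 0.14), and at the morula Lats1 by 1.51 ± 0.48 (adjusted p = 0.183). All 6 NT 8-cell embryos held less Amot (1.41 to 5.69 RPKM) than the in vivo ones (7.09 to 19.4 RPKM) and more Tead4 (6.33 to 23.8 RPKM against 3.69 to 5.20 RPKM). NTC 1-cell embryos had 2 of 6 members with an unadjusted p below 0.05, Lats1 and Amot, with 1.16% of all genes called and no member called in any other setting. NTM 1-cell embryos (1.28% called) and NTC and NTM 2-cell embryos (0.152% and 0.141% called) had none. At the 1-cell and 2-cell stages no pooled test of a member had an unadjusted p below 0.05, with 3.82% and 0.338% of all genes called.

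Interaction terms tested whether a step differed between NT and in vivo embryos. Tead4 differed in this way from the 4-cell to the 8-cell stage. In vivo Tead4 fell there, and the NTC and NTM changes of 0.65 and 0.43 were not called. The difference of the log2 changes was 3.09 ± 0.81 for NTC (limma adjusted p = 0.0172, kept without each of the 12 libraries) and 2.87 ± 0.83 for NTM embryos (adjusted p = 0.0302). Of all genes, 19.5% and 18.7% were called by these tests (17.0% and 16.5% higher), with medians of 0.88 in both. With median-ratio scaling the NTC difference was 2.14 (adjusted p = 0.123), and over nuclear genes alone its adjusted p was 0.0509, so the call depended on the scaling. The NTM call was likewise lost with both scalings (adjusted p = 0.102 and 0.0666) and without the filter on low values (0.0527). It was also lost without any in vivo 4-cell library, in vivo 8-cell replicate 2 or 3, or NTM 8-cell replicate 1 or 2 (adjusted p up to 0.0711). Nf2 in NTM embryos differed by 2.86 ± 0.92 at the same step (adjusted p = 0.0454), which was lost in 9 of 12 fits without 1 library (up to 0.0984, each of the 3 in vivo 4-cell and 3 NTM 8-cell libraries, in vivo 8-cell replicates 2 and 3 and NTM 4-cell replicate 1). It was lost too with median-ratio scaling (0.119), over nuclear genes alone (0.0692), without the filter (0.0809) and with the replicate block (0.0726). Tead1 in NTM embryos differed by 2.28 ± 0.63 at the 2-cell to 4-cell step (adjusted p = 0.0386, with 9.91% of all genes called, 1.86% higher). It was lost in 7 of 12 such fits (up to 0.0904, each in vivo 4-cell library, in vivo 2-cell replicates 1 and 3, NTM 2-cell replicate 3 and NTM 4-cell replicate 2), with a pseudocount of 0.1 (0.258), without the filter (0.0557) and with the replicate block (0.0766). In all, 1 of 33 tests of members was called at the steps planned, and 3 of 45 at the other steps, which included the 4-cell to 8-cell step and were added after the values had been seen. At the steps not named here, 0% to 0.647% of all genes were called.

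No member was called between embryos from the 2 kinds of donor nucleus. Of 47 tests of NTM against NTC embryos over the 6 stages, limma called 0, 4 had an unadjusted p below 0.05, and other settings also called 0. Of all genes, 19.8% were called at the 1-cell stage, 0.0507% at the 8-cell stage and 0% at the other stages. At the 1-cell stage Amot was at 0.126, 0.862 and 0.0505 RPKM in NTM and 1.46, 2.11 and 1.91 RPKM in NTC embryos, a difference of -1.11 (adjusted p = 0.0608). Amot was also lower in all 3 NTM morulae (2.14, 3.16 and 1.03 RPKM) than in all 3 NTC morulae (10.1, 8.32 and 7.66 RPKM), at -1.69 (adjusted p = 0.122). Lats1 was lower in NTM than NTC 1-cell embryos without overlap (1.59 to 3.82 against 4.91 to 5.63 RPKM). Wwtr1 was higher in NTM than NTC 8-cell embryos without overlap (26.1 to 73.7 against 14.9 to 21.9 RPKM). Most other members overlapped at each stage. A difference that misses the threshold in 3 embryos against 3 may still be there. Amot lies on the X chromosome, and donor sex was not stated for NTM embryos, so sex and donor type cannot be told apart.

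The donor cells themselves differed in Wwtr1, with cell type, culture and low serum differing together. MEFs held 73.6, 63.7 and 77.0 RPKM and cumulus cells 24.9, 4.57 and 7.74 RPKM, with a difference of 2.74 ± 0.61 (limma adjusted p = 0.0327). It was the 1 member called of 8, with 6.29% of all genes called (3.99% higher), and was lost without any library but CC replicate 1 (adjusted p up to 0.144). Nf2 was at 4.71, 20.1 and 2.98 RPKM in MEFs and at 0.0235 RPKM or less in all 3 cumulus libraries, a difference of 2.95 ± 0.83 that was not called (adjusted p = 0.0813).

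Against their donor cells, 1-cell NT embryos held more Yap1 and less Wwtr1. Oocyte markers summed to 2311 to 2700 RPKM in NTC and 4072 to 4585 RPKM in NTM 1-cell embryos. In CC and MEF libraries they reached at most 5.41 and 4.35 RPKM. RNA of the recipient oocyte and of the transferred nucleus cannot be told apart in these differences. NTC 1-cell embryos were called for 6 of 8 members (3 higher and 3 lower, with 50.0% of all genes called, 29.3% higher and 20.8% lower) and NTM 1-cell embryos for 5 of 8 (1 higher and 4 lower, with 55.2% called, 25.2% higher and 29.9% lower). Wwtr1 was at 0.384, 0.439 and 2.52 RPKM in NTM 1-cell embryos, a log2 difference of -5.24 ± 0.43 from MEFs (limma adjusted p = 7.79e-05), and at 0.165, 1.52 and 0 RPKM in NTC 1-cell embryos, -2.91 ± 0.68 from cumulus cells (adjusted p = 0.0144). The first call was kept without each library, and the second was lost without NTC 1-cell replicate 1 or 3 (adjusted p up to 0.0660). Yap1 was higher than in the donor by 3.25 ± 0.74 in NTC (adjusted p = 0.0131) and 2.14 ± 0.55 in NTM embryos (adjusted p = 0.0148). Both of these calls were lost without any 1-cell library (up to 0.0597 and 0.0630). In vivo 1-cell embryos, at 53.0 to 75 RPKM of Yap1, overlapped NTC 1-cell embryos (53.0 to 71.5 RPKM).

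The kinases and Nf2 were compared with each donor in turn. In NTM 1-cell embryos Lats2 was lower than in MEFs (0.0290, 0.788 and 0.224 against 19.6, 12 and 8.37 RPKM, -3.37 ± 0.41, limma adjusted p = 0.000489), as were Tead1 (-2.22 ± 0.38, adjusted p = 0.00233) and Nf2 (-1.99 ± 0.64, adjusted p = 0.0344). The Nf2 call was lost without MEF replicate 1 or any NTM 1-cell library (up to 0.12), and the difference was -1.28 without MEF replicate 2. In NTC 1-cell embryos Lats1 was higher than in cumulus cells (4.91, 5.63 and 5.27 against 0.0953, 0.944 and 0 RPKM, 2.28 ± 0.34, adjusted p = 0.00245), and so was Nf2 (1.39 ± 0.36, adjusted p = 0.02), both kept in every fit without 1 library that tested them. In cumulus cells Lats1 and Nf2 averaged 0.347 and 0.0125 RPKM, so both passed the filter on low values only through the NTC embryos. The Nf2 call was lost in 1 fit over all 20 groups (0.0517) and with the replicate block (0.0692). Lats2 and Tead2 were lower by log2 differences of -1.25 ± 0.41 (adjusted p = 0.0468) and -1.40 ± 0.35 (adjusted p = 0.0184). The Lats2 call was lost without any library but CC replicate 2 (up to 0.134) and the Tead2 call without CC replicate 1 or 2 or NTC 1-cell replicate 1 or 3 (up to 0.0578).

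By the blastula stage Tead4 was the 1 member of 9 called against the donor in each NT type, with 24.2% of all genes called for NTC (9.92% higher) and 30.8% for NTM embryos (11% higher). Tead4 was listed at 0 in all 6 donor libraries, and the fitted differences of 2.73 ± 0.53 for NTC (limma adjusted p = 0.00969) and 2.96 ± 0.61 for NTM embryos (adjusted p = 0.00724) depend on the pseudocount of 1. It also passed the filter on low values only through the blastulae, so these calls add little to the values themselves.

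The other genes of the pathway were looked at as a list of 65. From the in vivo 2-cell to 4-cell stage, 46 were tested, 4 rose and 10 fell, with 52.2% of all genes called and a median change of -0.21 against 0.36 over all genes. Rhoa, a small GTPase that shapes actin, rose (4.41 ± 0.37, limma adjusted p = 0.000104). Stk3, which encodes the kinase Mst2 upstream of Lats, fell (-3.84 ± 0.51, adjusted p = 0.000664), as did the apical polarity genes Pard6b (-3.02 ± 0.42) and Pals1 (-2.99 ± 0.42). In NTC embryos 7 of 48 rose and 15 fell at this step (36.6% of all genes called), and in NTM embryos 5 of 47 rose and 10 fell (26.4% called). Pard6b fell in both (-4.63 in NTC, -4.57 in NTM embryos), as did Pals1 (-4.00 and -3.46). At the in vivo 4-cell to 8-cell step 3 of 43 rose and 10 fell, with 43.7% of all genes called. The genes that fell included Mob1a, the partner of the Lats kinases (-2.23 ± 0.61, adjusted p = 0.0198).

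Between NT and in vivo embryos, most calls of the list were also at the 4-cell and blastula stages. At the pooled 8-cell stage 2 of 43 were higher and 2 lower, with 3.61% of all genes called. At the pooled 1-cell stage 1 of 41 was lower, with 3.82% of all genes called. In pooled NT 4-cell embryos 5 of 44 were higher and 4 lower (26.6% of all genes called, median -0.38 against -0.41 over all genes). Sav1, the scaffold of the Mst kinases, was higher (2.91 ± 0.71, limma adjusted p = 0.0113), and so was Amotl2, a relative of Amot (2.63 ± 0.84, adjusted p = 0.0398). Amotl2 was at 0.0121, 0.0107 and 0 RPKM in in vivo 4-cell embryos against 0.58, 15.2 and 1.36 RPKM in NTC and 9.65, 2.07 and 28.4 RPKM in NTM embryos. Rhoa was lower (-1.91 ± 0.41, adjusted p = 0.00555). In pooled NT blastulae 7 of 50 were higher and 3 lower (18.5% of all genes called, median 0.83 against 0.79). The higher genes included Mob1a (3.59 ± 0.46, adjusted p = 0.00197), Stk4, which encodes Mst1 (3.09 ± 0.53, adjusted p = 0.00507), and Amotl2 (2.86 ± 0.53, adjusted p = 0.00621), and Pals1 was lower (-2.77 ± 0.56, adjusted p = 0.00898). In NTM against NTC 1-cell embryos 0 of 42 were higher and 9 lower, beside 19.8% of all genes called.

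Of the general targets of Yap1 and Tead factors, 15 were tested between the donor cells, and 6 were higher and 1 lower in MEFs, with 6.29% of all genes called. Their median difference was 1.80 against 0.19 over all genes. Ccn1 and Ccn2, secreted matrix proteins, were higher by 7.03 ± 1.06 (limma adjusted p = 0.00535) and 4.37 ± 0.68 (adjusted p = 0.0062). Cell type and the culture of MEFs cannot be told apart here either. In NTM 1-cell embryos Ccn1 was lower than in MEFs by a log2 difference of -10.88 ± 0.23 (adjusted p = 3.02e-06). Of all genes, 55.2% were called there and 29.9% were lower. Ccn1 was listed at 0 in every NTM 1-cell library and also in every in vivo 1-cell library. The fitted difference therefore depends on the pseudocount of 1.

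Among the embryo's own targets, Cdx2 and Gata3 were expressed in all 6 NT blastulae, and Sox2 was lower there than in in vivo blastulae. Cdx2 was at 25.3, 75.8 and 10.2 RPKM in in vivo, 60.4, 51.2 and 8.83 RPKM in NTC and 75.2, 114 and 81.1 RPKM in NTM blastulae, with a pooled difference of 0.91 ± 0.74 (limma adjusted p = 0.384). Gata3 differed by 0.19 ± 0.48 (adjusted p = 0.794). Sox2 was at 19.2, 4.89 and 15.2 RPKM in in vivo blastulae and at 0.13 to 4.63 RPKM in the 6 NT blastulae, and the pooled difference of -2.59 ± 0.63 was called (adjusted p = 0.02). In morulae Cdx2 was at 22.1, 7.51 and 19.4 RPKM in in vivo, 21.7, 0 and 14.5 RPKM in NTC and 9.75, 9.51 and 35.9 RPKM in NTM embryos, and Gata3 at 9.58 to 38.9 RPKM in in vivo and 4.17 to 48.0 RPKM in NT embryos, with overlap throughout. There Sox2 was at 0 in all 6 NT embryos and at 0.28 to 1.43 RPKM in in vivo embryos. The summed RPKM of 6 inner cell mass markers was 106 to 128 in in vivo, 131 to 193 in NTC and 108 to 266 in NTM blastulae.

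The genes whose levels ran most like a member's were found by Pearson's r of log2(mean RPKM + 1) over the 18 embryo groups among 17078 genes, which is a description over groups that share stages. Yap1 was followed most closely by Armcx5 (r = 0.965), Tcf7 (0.949) and Fam117b (0.948), and Tead4 by Hdac1 (0.970), Uqcc3 (0.964) and Ccdc124 (0.959). Lats2 ran with Ago2 (0.945), Thap4 (0.943) and Fam49b (0.930), and Amot with Smim1 (0.916) and Gdf3 (0.912). The gene nearest to Tead1 was Amotl2 (0.956), a pathway gene named here after its value was seen.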

How the data were processed

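RNA of single embryos and of donor cells was amplified by tailing and sequenced without molecular identifiers, so reads are not independent molecules. The authors aligned reads with TopHat, counted them with HTSeq and deposited RPKM values of 27238 genes for 60 libraries as 1 table. The submitters' processing notes name Bowtie 0.12.2 and the genome build mm8, so the build behind the table is not settled. Symbols were found for 27013 identifiers. At exon lengths of the GENCODE annotation, the deposited RPKM values came out as whole reads for 21434 of 26845 genes above 0 (within 0.01 of a read). For Tead1, Tead2, Tead3, Lats1 and Lats2 the annotated length gave fractions. The shortest length that made their values whole was used instead, so whole reads for these genes are no check. With these lengths all 518 member values above 0, of 600, were whole. Libraries held 5294167 to 47830132 reads on genes.

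Groups were compared with limma 3.58.1 (lmFit and eBayes with an intensity trend, R 4.3.3) on log2(RPKM + 1), over genes with a mean of at least 0.5 RPKM in the libraries compared, 1 pair of groups at a time. A gene at or near 0 in 1 group was thus tested only through the group where it was high. Fold changes are on that scale, which understates low genes. P-values were adjusted by the Benjamini-Hochberg method over all genes tested, and a call needed an adjusted p under 0.05 and a log2 change of at least 1 in size. In simulated data for 11457 genes of NTC against in vivo 4-cell embryos, 63% of log2 changes of 3 and 96% of changes of 6 were called, with 8 false calls. For 9288 genes at the blastula stage it was 34% and 83%, with 7 false calls. Each simulation changed 200 genes, while the real comparisons called 27.8% of genes at the 4-cell and 9.46% at the blastula stage. The rates therefore need not hold for the real data. Other steps used Python 3.11.15, numpy 2.4.6 and pandas 2.3.3.

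All 10 members were named in every comparison. Of the other pathway genes, names came from the up to 6 called with the largest change in a comparison, with the embryo targets Cdx2, Gata3 and Sox2. The members and lists were chosen with earlier results of these data known. Promoters came from the RefSeq table (GRCm38.p6), and the deposited table gives no coordinates. Pals1 was read under its older symbol Mpp5. Alternatives were a pseudocount of 0.1, no filter, median-ratio scaling, 1 fit over all 20 groups, the replicate number as a block, no fold threshold, leaving out libraries and, added after the values were seen, scaling to nuclear reads only.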

Additional observations from a re-analysis of the deposited data

Results flagged for a closer look

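The results in this section are differences between embryo types in how a member changed from one stage to the next, each as the difference of 2 log2 changes (NT minus in vivo, limma interaction). Tead4 differed at the 4-cell to 8-cell step, with 3.09 for NTC (adjusted p = 0.0172) and 2.87 for NTM embryos (adjusted p = 0.0302), and both share the same in vivo libraries. Nf2 differed by 2.86 in NTM embryos at that step (adjusted p = 0.0454). The step was added after the values had been seen. Members called there were 1 of 8 for NTC and 2 of 8 for NTM embryos. Of all genes, 19.5% and 18.7% were called, with medians of 0.88 in both. The 3 calls of Tead4 and Nf2 were lost with median-ratio scaling (adjusted p 0.123, 0.102 and 0.119) and over nuclear reads alone (0.0509, 0.0666 and 0.0692). Tead1 differed by 2.28 in NTM embryos at the 2-cell to 4-cell step (adjusted p = 0.0386), where 9.91% of all genes were called (1.86% higher). Tead2 moved in opposite directions at the 2-cell to 4-cell step, as every in vivo 4-cell library (0.853 to 1.35 RPKM) was above every in vivo 2-cell library (0.0771 to 0.426 RPKM) and every NTM 4-cell library (0 to 0.290 RPKM) was below every NTM 2-cell library (0.450 to 1.34 RPKM). Its difference of -1.52 did not pass the interaction test (adjusted p = 0.0896). The mitochondrial share was 5.68 to 8.87% in in vivo and 29.6 to 40.4% in NT 4-cell embryos.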

How the results depend on the processing

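No call of a member turned its direction in any setting tried. Of the 44 calls of members, 18 were kept with each single library left out and 26 were lost without at least 1. Fits without 1 library kept 183 of 299 calls, and the other settings kept 250 of 307. The 307 include 44 fits with no fold threshold, which only loosened the rule and could lose no call. Without the filter on low values, calls dropped from 17 to 11 over the stage transitions, from 4 to 2 in NT against in vivo embryos, from 5 to 2 in pooled NT embryos and from 1 to 0 in donor cells. One fit over all 20 groups raised the counts to 12 in NT against in vivo embryos, 5 in donor cells and 4 by interaction at the planned steps (from 1). Median-ratio scaling gave 0 in donor cells, 2 by interaction at the planned steps and 1 at the added steps (from 3). Scaling to nuclear reads only, added after the values were seen, gave 7 in NT against in vivo embryos, and 2 and 0 by interaction at the planned and added steps. A pseudocount of 0.1 gave 2 in donor cells and larger fitted changes of low members, such as 5.06 in place of 3.34 for Nf2 from the in vivo 2-cell to the 4-cell stage and -3.35 in place of -1.03 for Tead2 at the next step. With 1 replicate number left out of every group, the counts were 6 to 10 over the transitions, 1 to 2 in NT against in vivo embryos, 0 to 4 in pooled NT embryos, 0 in donor cells, 7 to 9 against the donors (from 13), 0 by interaction at the planned steps and 0 to 1 at the added steps. The cause of these changes was not tested. Shares of all genes called are not given by setting, so the counts do not tell whether members moved more than other genes. NTM against NTC embryos had 0 calls throughout. The replicate numbers did not pair the libraries: in 0 of 38 comparisons did all same-numbered libraries deviate together with a correlation over 0.1, and in 2 of 38 every library correlated best with its own number. With the replicate number as a block, 32 of 44 calls were kept, with 14 calls over the transitions, 3 in pooled NT embryos, 10 against the donors, 0 by interaction at the planned and 2 at the added steps. At these depths 3 reads of a member were worth at most 0.157 RPKM.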
